A study of Mus musculus with 15 samples.

Results

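The genes described here are 10 immediate early transcription regulators, *Fos*, *Fosb*, *Fosl1*, *Fosl2*, *Jun*, *Junb*, *Jund*, *Egr1*, *Atf3* and *Ier2*, taken by symbol from the 54390 genes listed for BV2 cells. Immediate early genes are transcribed within minutes of a stimulus, without new protein synthesis, through factors that already sit in the cell and are activated by MAP kinases. Fos and Jun proteins are bZIP factors that pair to form AP-1, which binds TGACTCA. Atf3 is a stress-induced bZIP protein of the ATF/CREB family, Egr1 is a zinc-finger factor, and Ier2 is a small nuclear regulator. In macrophages and microglia, AP-1 and Egr factors respond to growth factors, microbial products and cell stress.

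BV2 is a mouse microglial line that was immortalised with an oncogenic retrovirus. RNA was sequenced from WT cells in medium alone (WT non-foamy, n = 4), WT cells given 20 μg/ml soluble cholesterol overnight (WT foamy, n = 4), Trem2-/- cells in medium alone (Trem2-/- non-foamy, n = 3) and Trem2-/- cells given the same cholesterol (Trem2-/- foamy, n = 4). The cholesterol was carried by methyl-beta-cyclodextrin, so cholesterol and carrier cannot be told apart. Trem2 is a lipid-sensing receptor of macrophages, and the knockout cells were CRISPR-Cas9 clones isolated by limiting dilution, whose number among these libraries is not given in the sources used here, so that genotype and clone cannot be told apart either. The labels do not say that the libraries of a group came from separate cultures, so p-values measure the spread between these samples, which may be technical.

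*Trem2* was lower in every Trem2-/- library (214 to 232 CPM, counts scaled to library size) than in every WT library (327 to 415 CPM). Each library held 23538963 to 41683825 counts. On principal components, the genotypes separated on the first (55.7% of the variance), while WT non-foamy replicate 3, WT foamy replicate 1 and Trem2-/- foamy replicate 4 stood apart on the second. Mitochondrial genes held 7.97%, 5.83% and 8.05% of their counts, in a range of 5.83% to 8.05% over all libraries. WT foamy replicate 3 also reached 7.76%. WT non-foamy replicate 3 had the fewest counts. The part of these differences in the results below was not tested. The summed level of 10 macrophage markers was 4213 to 5192 CPM in WT and 6441 to 6798 CPM in Trem2-/- libraries, and 8 of the 10 were called higher in Trem2-/- cells with and without cholesterol. Of all tested genes, 21.0% were called higher without and 14.3% with cholesterol. Of 5 resident microglia markers, *Sall1* was at 0 in all libraries, and all 5 together summed to 2.90 to 4.31 CPM in WT and 1.01 to 2.09 CPM in Trem2-/- libraries, so the defining markers of tissue microglia were nearly absent. Of the 3 that were tested, 2 were called lower in Trem2-/- cells with and without cholesterol, where 22.6% (without) and 15.9% (with) of all tested genes were. Markers of other cell types (10 genes, 5 at 0 in all libraries) summed to at most 0.633 CPM. The part of the macrophage and microglia markers' differences in the results below was not tested.

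The sequence before the start of 4 of the genes is shown. *Fos* and *Atf3* had the largest fitted genotype differences among the 7 tested genes without cholesterol, in opposite directions, and *Junb* and *Jun* were the most abundant Fos or Jun genes. Each is the 250 bases before the RefSeq start (GRCm38.p6), 5′ to 3′ on the gene's strand: *Fos* at chr12:85473640-85473889 (+), *Jun* at chr4:95052223-95052472 (-), *Junb* at chr8:84978749-84978998 (-) and *Atf3* at chr1:191183334-191183583 (-). Capitals mark TGACG, the first letters of the cAMP response element, on either strand (CGTCA on the other strand), or, in *Jun*, the variant AP-1 motif TGACATCA.
Fos: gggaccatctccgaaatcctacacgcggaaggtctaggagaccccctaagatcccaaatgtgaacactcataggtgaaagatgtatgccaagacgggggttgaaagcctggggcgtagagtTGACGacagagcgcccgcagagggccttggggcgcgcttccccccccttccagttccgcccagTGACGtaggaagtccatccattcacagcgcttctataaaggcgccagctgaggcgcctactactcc
Jun: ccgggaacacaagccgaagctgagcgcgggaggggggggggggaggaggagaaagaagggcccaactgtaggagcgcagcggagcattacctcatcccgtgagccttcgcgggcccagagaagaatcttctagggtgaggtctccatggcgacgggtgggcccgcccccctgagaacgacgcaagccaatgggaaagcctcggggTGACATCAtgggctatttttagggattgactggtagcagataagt
Junb: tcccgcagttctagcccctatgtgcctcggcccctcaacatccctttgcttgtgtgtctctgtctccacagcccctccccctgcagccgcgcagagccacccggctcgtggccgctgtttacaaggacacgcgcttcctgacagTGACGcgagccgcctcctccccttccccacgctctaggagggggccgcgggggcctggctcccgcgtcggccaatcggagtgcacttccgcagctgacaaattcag
Atf3: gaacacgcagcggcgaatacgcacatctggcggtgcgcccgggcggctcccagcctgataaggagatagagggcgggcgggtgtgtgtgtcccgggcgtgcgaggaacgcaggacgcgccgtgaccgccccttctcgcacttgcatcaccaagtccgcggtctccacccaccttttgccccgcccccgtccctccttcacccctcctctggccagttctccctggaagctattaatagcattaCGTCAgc

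A promoter sequence was found for 7 of the 10 genes. For *Junb* and *Jund* the sequence after the window was not matched to a GENCODE transcript of the gene. The *Jund* window (chr8:70697489-70697738) ends well before the gene's GENCODE start at 70698949, so it may not be the promoter of *Jund*. None of these 7 held, on either strand, the AP-1 motif TGACTCA, the full cAMP response element TGACGTCA, the CArG box bound by Srf, the ETS core CCGGAA or the Egr motif GCGTGGGCG, which were present in 4.46%, 1.55%, 1.47%, 12.02% and 0.536% of 32817 promoters of the same length. TGACG and TGACATCA were searched after the sequences had been seen, and TGACG is contained in the full cAMP response element. TGACG was in 4 of the 7 and in 17.7% of all promoters. It started 129 and 66 bases before the start of *Fos*, 60 bases before that of *Fosb* and 106 bases before that of *Junb*, and 7 bases before that of *Atf3* on the other strand. TGACATCA was in *Jun*, 45 bases before the start, and in 2.93% of all promoters. These matches and absences describe letters in the 250 bases searched. Sequence further upstream was not searched, so an element there, such as a CArG box, would be missed. No binding was measured.

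Per kilobase of exon (RPKM, from the counts and GENCODE exon lengths), the 10 genes spanned several orders of magnitude. *Atf3* stood first with a mean over the 15 libraries of 97.8 RPKM (range 61.6 to 132), followed by *Junb* at 19.7, *Jun* at 10.15, *Ier2* at 8.04 and *Jund* at 4.96 RPKM. *Fosl2* (0.861 RPKM) had group means of 0.828 to 0.905 RPKM. *Fos* (0.904 RPKM) had means of 1.23 and 1.32 RPKM in WT non-foamy and foamy cells, and 0.361 and 0.569 RPKM in the Trem2-/- groups. *Fosl1* (0.0372 RPKM) and *Fosb* (0.0240 RPKM) were near the limit of detection, and *Egr1* was listed at 0. *Atf3* was above *Junb*, and *Junb* above *Jun*, in 15 of 15 libraries. *Jun* was above *Ier2* in 13 of 15. *Fos* was above *Fosl2* in all 8 WT libraries and in 0 of the 7 Trem2-/- libraries. This order depends on the merged exon lengths, 2352 bases for *Fos* and 9680 for *Fosl2*. In CPM, *Fosl2* (6.07 to 10.6) was above *Fos* (0.570 to 3.87) in every library. Which transcripts were expressed was not measured. *Fosl1* was above *Fosb* in 8 of 15, so these neighbours had no fixed order.

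**Figure D1:**
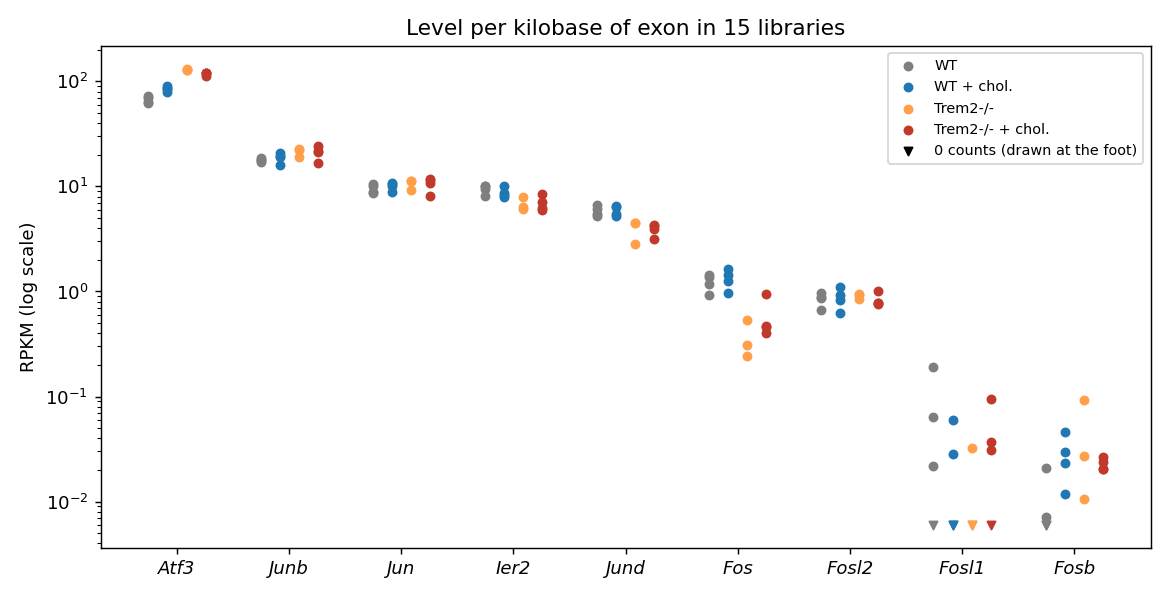
Level of each gene in every library, in RPKM on a logarithmic axis, with genes in order of their mean and colours for the 4 groups. Triangles mark libraries with 0 counts. *Atf3* lies above all other genes in every library, and *Fosl1* and *Fosb* fall to 0 in some.

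Fold changes below are log2 values from edgeR's quasi-likelihood test on counts over all 15 libraries, and a gene was called at a Benjamini-Hochberg adjusted p under 0.05 over the 14237 genes tested. Of the 10 genes, 7 passed the filter on low counts (*Fos*, *Fosl2*, *Jun*, *Junb*, *Jund*, *Atf3* and *Ier2*). Between Trem2-/- and WT cells without cholesterol, 2 of the 7 were called higher and 3 lower, where 43.6% of all tested genes were called (21.0% higher and 22.6% lower). With cholesterol, 1 was called higher and 3 lower, against 30.2% of all tested genes (14.3% and 15.9%). In WT cells 1 of the 7 was called, *Atf3*, against 2.80% of all tested genes (1.66% higher and 1.14% lower). In Trem2-/- cells edgeR called 0 of the 7, against 0.140% of all tested genes (0.105% higher and 0.0351% lower), with 0 at an unadjusted p under 0.05 and 0 by DESeq2. The response to cholesterol differed between the genotypes for 1 of the 7, again *Atf3*, against 3.64% of all tested genes (1.99% with a positive and 1.64% with a negative difference). Cholesterol was given overnight and no earlier time was sampled. A change within minutes or hours that had ended by then would be missed. Each group enters 2 pairwise comparisons, so a cholesterol and a genotype comparison of the same group share libraries. In bulk RNA, fewer cells expressing a gene and less of its RNA per cell cannot be told apart. The median log2 fold change of the 7 was between -0.09 and 0.08 in the 5 comparisons, and that of all tested genes between -0.0024 and 0.017.

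**Figure D2:**
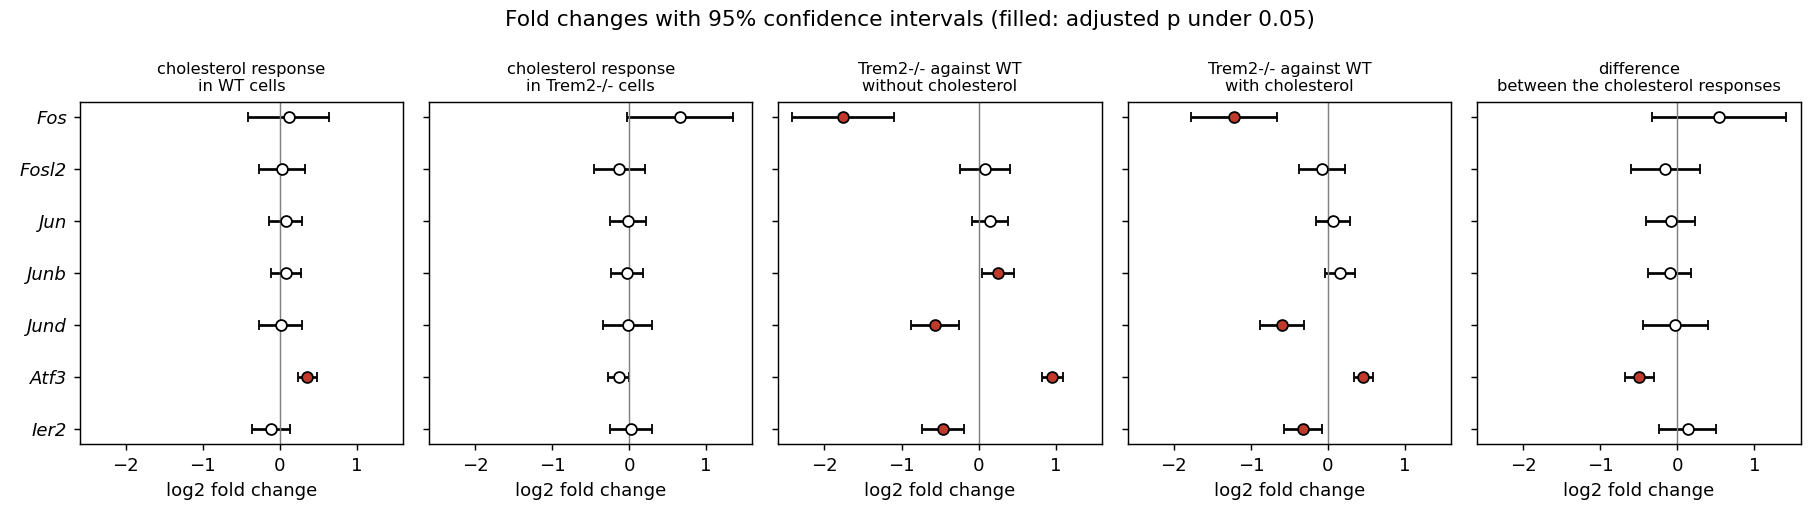
Log2 fold changes (x axis) of the 7 tested genes with 95% confidence intervals in the 5 comparisons. Filled points passed an adjusted p of 0.05. *Fos*, *Jund* and *Ier2* are filled on the left and *Atf3* on the right in both genotype comparisons, and *Atf3* alone is filled for cholesterol in WT cells and for the difference between the responses.

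*Atf3*, which acts mostly as a repressor when it pairs with itself, lies on the minus strand at chr1:191170296-191218039 (GRCm38) and shares no exon base with another gene. Its level was 133, 149, 158 and 136 CPM in the WT non-foamy libraries. In the WT foamy libraries it was 180, 196, 188 and 171 CPM. All of these lay above the untreated WT libraries. In the Trem2-/- non-foamy libraries it was 284, 274 and 277 CPM, and in the Trem2-/- foamy libraries 258, 256, 243 and 256 CPM. The 4 groups did not overlap at all, in the order WT non-foamy, WT foamy, Trem2-/- foamy and Trem2-/- non-foamy. How many of all tested genes had all 4 groups apart was not counted. Between the genotypes, groups failed to overlap for 46.1% of all tested genes without and 28.8% with cholesterol.

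Cholesterol raised *Atf3* in WT cells from 144 ± 11.6 to 184 ± 10.6 CPM (SD, n = 4 each), or by 0.36 on the log2 scale (s.e. 0.06, edgeR adjusted p = 0.00222). Groups failed to overlap for 9.71% of all tested genes in this comparison. In Trem2-/- cells the levels were 278 ± 5.04 CPM (SD, n = 3) without and 253 ± 6.86 CPM (SD, n = 4) with cholesterol, a log2 fold change of -0.14 (95% CI -0.27 to 0.00087) that did not pass (edgeR adjusted p = 0.774), although every treated library was lower, as groups failed to overlap for 9.26% of tested genes. The difference between these responses was -0.49 (s.e. 0.09, edgeR adjusted p = 0.00322). The 2 comparisons share no library. Trem2-/- cells had 1.94-fold the WT level without cholesterol (log2 0.96, s.e. 0.07, edgeR adjusted p = 1.48e-10) and 1.38-fold with it (log2 0.46, s.e. 0.06, edgeR adjusted p = 5.53e-06). All of these *Atf3* calls passed in each of the 15 to 22 alternative fits run for their comparison.

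**Figure D3:**
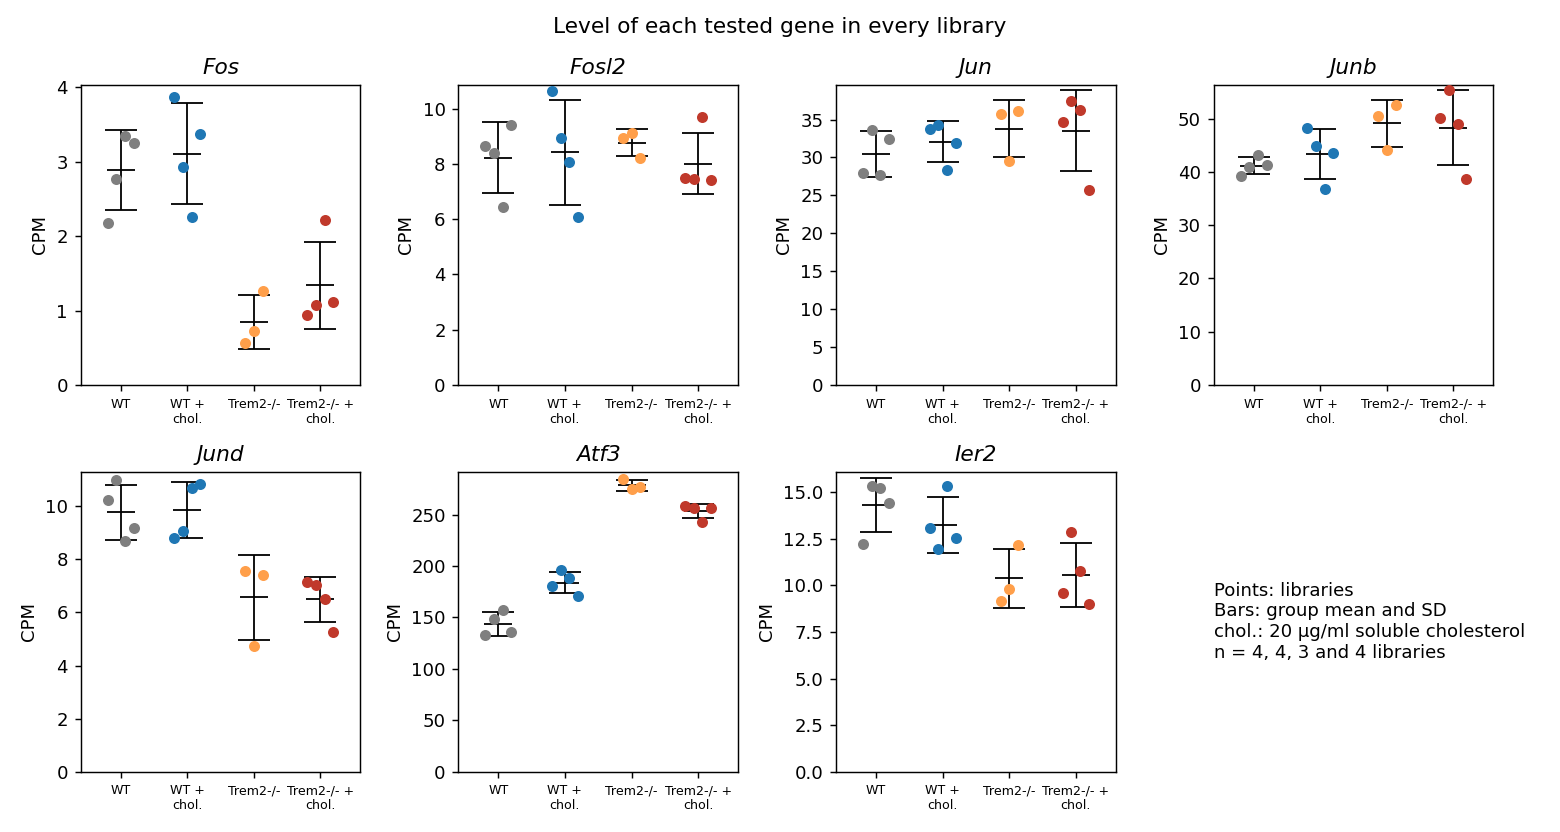
Level of the 7 tested genes in CPM (y axis from 0) in each of the 15 libraries, by group, with the group mean and SD as bars. The *Atf3* groups do not overlap. *Jund* and *Fos* lie lower in every Trem2-/- library than in any WT library of the same treatment, and *Fosl2* and *Jun* overlap throughout. Between the genotypes, 46.1% of all tested genes without and 28.8% with cholesterol do not overlap.

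*Fos*, the founding Fos subunit and a classical readout of cell stimulation, lies on the plus strand at chr12:85473890-85477273 and shares no exon base with another gene. It was a low gene here, so its counts are given. There were 84, 86, 76 and 146 counts in the WT non-foamy libraries and 160, 120, 74 and 118 in the WT foamy libraries. The Trem2-/- non-foamy libraries held 20, 20 and 38 counts and the Trem2-/- foamy libraries 34, 34, 70 and 30. The CPM were 2.18 to 3.34 CPM in WT non-foamy, 2.26 to 3.87 CPM in WT foamy, 0.570 to 1.26 CPM in Trem2-/- non-foamy and 0.945 to 2.22 CPM in Trem2-/- foamy cells. No Trem2-/- library reached a WT library of the same treatment, but with cholesterol the highest Trem2-/- library (2.22 CPM) lay next to the lowest WT library (2.26 CPM).

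Without cholesterol, *Fos* was 0.850 ± 0.362 CPM (SD, n = 3) in Trem2-/- and 2.89 ± 0.536 CPM (SD, n = 4) in WT cells, 0.294 of the WT level (log2 fold change -1.76, s.e. 0.32, edgeR adjusted p = 9.77e-05). With cholesterol it was 1.34 ± 0.589 and 3.11 ± 0.681 CPM (SD, n = 4 each), 0.430 of the WT level (log2 fold change -1.22, s.e. 0.27, edgeR adjusted p = 0.00150). Groups failed to overlap for 46.1% and 28.8% of all tested genes in these comparisons. The cholesterol treatment gave a log2 fold change of 0.11 (95% CI -0.41 to 0.64, edgeR adjusted p = 0.872) in WT cells. In Trem2-/- cells the value was 0.66 (95% CI -0.03 to 1.35, edgeR adjusted p = 0.791). Neither passed the threshold, and the difference between the responses was 0.55 (95% CI -0.32 to 1.41). Both genotype calls passed in every alternative fit, with log2 values from -2.16 to -1.53 without and -1.58 to -1.02 with cholesterol.

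*Fosl2*, which encodes the Fos-related subunit Fra-2, lies on the plus strand at chr5:32135801-32157842. It held 146 to 440 counts a library, or 6.07 to 10.6 CPM, and the 4 groups overlapped throughout, with means between 8.01 and 8.76 CPM. Its log2 fold changes lay between -0.13 and 0.08 in the 4 pairwise comparisons, and none passed. The widest interval among the genotype comparisons was -0.25 to 0.41 (without cholesterol). *Fosb*, a further Fos subunit (minus strand, chr7:19302696-19310051), held 0 to 16 counts a library, in all 6 in WT non-foamy, 25 in WT foamy, 24 in Trem2-/- non-foamy and 18 in Trem2-/- foamy cells. *Fosl1*, which encodes Fra-1 (plus strand, chr19:5447547-5455946), held 0 to 15 counts, in all 21, 7, 2 and 10 in the same order, and 57.2% of its exon bases are shared with *Ccdc85b*. Both fell below the filter. An exact two-sided permutation test of their CPM in the 4 pairwise comparisons gave p of at least 0.0571 in 8 tests (0.229 after Benjamini-Hochberg adjustment over the 8), where the smallest exact p that these group sizes allow is 0.0286. With so few counts and libraries, these tests do not show whether *Fosb* or *Fosl1* differed.

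Within each library the Fos subunits divided differently by genotype. *Fos* made up 56.9% ± 9.12 of the summed Fos-family RPKM in WT non-foamy and 58.8% ± 6.08 in WT foamy cells (SD, n = 4 each), and 26.9% ± 9.28 in Trem2-/- non-foamy (SD, n = 3) and 37.8% ± 6.41 in Trem2-/- foamy cells (SD, n = 4). *Fosl2* took most of the rest, at 39.5%, 39.1%, 69.0% and 57.7% in the same order. These shares come from the levels above, depend on the exon lengths used and were not tested on their own.

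*Jun*, the principal AP-1 partner of Fos, lies on the minus strand at chr4:95049034-95052222, and 7.28% of its exon bases are shared with the antisense gene *Junos*. It held 629 to 1452 counts a library. Its CPM were 28.0, 33.6, 27.7 and 32.4 in WT non-foamy and 33.7, 34.3, 28.4 and 31.9 in WT foamy cells. They were 35.8, 29.5 and 36.2 in Trem2-/- non-foamy and 34.7, 37.5, 36.3 and 25.7 in Trem2-/- foamy cells. All 4 groups overlapped, and *Jun* was called in none of the 5 comparisons. The log2 fold change between genotypes was 0.15 (95% CI -0.08 to 0.39) without and 0.07 (95% CI -0.15 to 0.28) with cholesterol, and the effect of cholesterol was 0.08 (95% CI -0.14 to 0.29) in WT and -0.01 (95% CI -0.24 to 0.22) in Trem2-/- cells.

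*Junb*, a Jun subunit that can oppose *Jun* at cell-cycle genes, lies on the minus strand at chr8:84974484-84978718, and 7.52% of its exon bases are shared with *Prdx2*. Its CPM were 39.3, 41.0, 43.2 and 41.2 in WT non-foamy and 50.6, 44.1 and 52.6 in Trem2-/- non-foamy cells. These groups did not overlap, as was so for 46.1% of all tested genes. The log2 fold change of 0.26 (s.e. 0.10) passed narrowly (edgeR adjusted p = 0.0430). The call was lost when WT non-foamy replicate 1 (edgeR adjusted p = 0.0989), 2 (0.0744) or 4 (0.0708), or Trem2-/- non-foamy replicate 1 (0.127) or 3 (0.173) was left out, and when libraries were scaled by total counts (log2 0.12, edgeR adjusted p = 0.477). With cholesterol the CPM were 48.2, 44.9, 36.8 and 43.6 in WT and 50.2, 55.4, 49.0 and 38.6 in Trem2-/- cells. These groups overlapped, and the log2 fold change of 0.16 (95% CI -0.04 to 0.35) did not pass (edgeR adjusted p = 0.222). The lowest value belonged to Trem2-/- foamy replicate 4, and without that library the log2 fold change was 0.25 (edgeR adjusted p = 0.0302). The effect of cholesterol on *Junb* passed in neither genotype, with log2 values of 0.08 (95% CI -0.12 to 0.27) in WT and -0.02 (95% CI -0.23 to 0.18) in Trem2-/- cells.

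*Jund*, the Jun subunit known for steady rather than induced expression, lies on the plus strand at chr8:70698949-70700616. GENCODE places the antisense gene *Gm11175* over 52.6% of its exon bases, which the count tables do not list, and whether counting used strand is not stated. Its counts were 394, 341, 197 and 411 in WT non-foamy, 364, 371, 349 and 379 in WT foamy, 265, 131 and 224 in Trem2-/- non-foamy and 257, 221, 206 and 142 in Trem2-/- foamy cells. In CPM, every Trem2-/- library lay below every WT library of the same treatment. Without cholesterol the ranges were 4.73 to 7.55 against 8.67 to 10.98 CPM. With cholesterol they were 5.27 to 7.14 against 8.79 to 10.85 CPM. Within a treatment, the genotypes failed to overlap for 46.1% of all tested genes without and 28.8% with cholesterol. The mean fell from 9.76 ± 1.04 (SD, n = 4) in WT to 6.56 ± 1.59 CPM (SD, n = 3) in Trem2-/- cells without cholesterol, a log2 fold change of -0.57 (s.e. 0.15, edgeR adjusted p = 0.00386). With cholesterol the means were 9.85 ± 1.06 and 6.49 ± 0.857 CPM (SD, n = 4 each), which is -0.59 on the log2 scale (s.e. 0.14, edgeR adjusted p = 0.00214). Cholesterol gave 0.01 (95% CI -0.27 to 0.29) in WT and -0.02 (95% CI -0.34 to 0.30) in Trem2-/- cells. Both genotype calls passed in every alternative fit.

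Among the 3 Jun genes, *Junb* made up 53.8% ± 2.71 and 54.0% ± 2.41 of the summed Jun-family RPKM in WT non-foamy and foamy cells (SD, n = 4 each), and 59.6% ± 1.59 (SD, n = 3) and 59.3% ± 0.897 (SD, n = 4) in the Trem2-/- groups. *Jund* had 17.6%, 17.1%, 10.9% and 11.02% in the same order. Its share ranged from 14.3% to 20.4% over the WT libraries and from 9.07% to 12.001% over the Trem2-/- libraries. *Jun* kept between 26.6% and 31.1% in all libraries. These shares were not tested on their own.

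**Figure D4:**
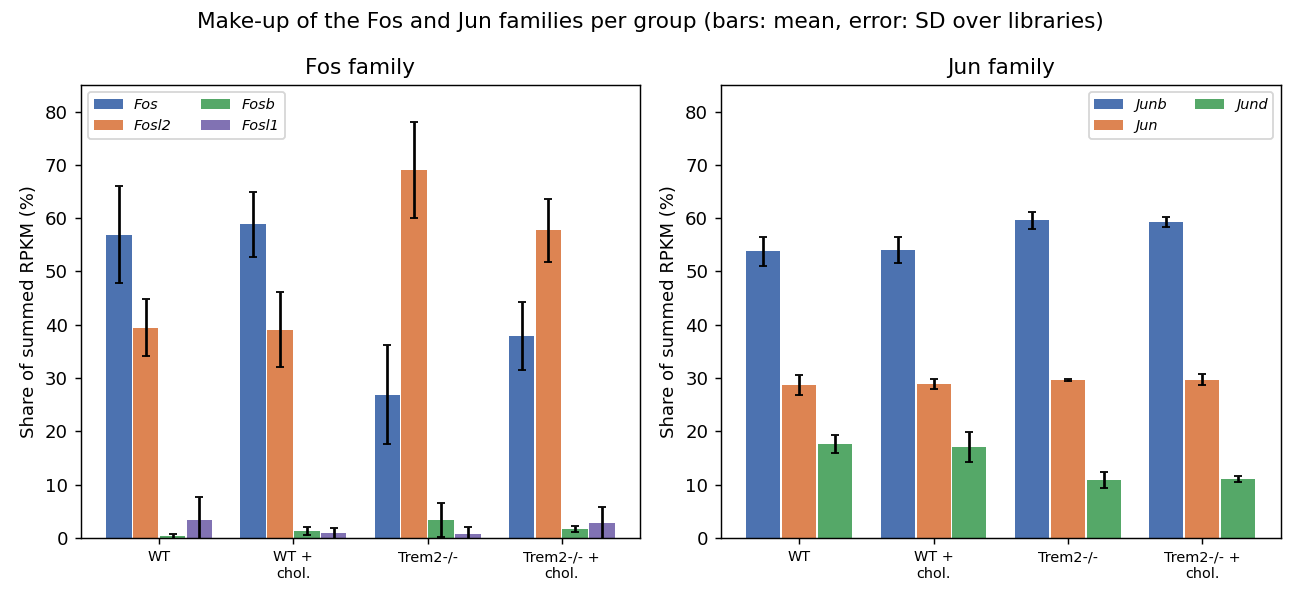
Share of each gene in the summed RPKM of its family (y axis, %), as the mean with SD over libraries, for the 4 Fos genes (left) and the 3 Jun genes (right) in the 4 groups. *Fos* exceeds *Fosl2* in both WT groups and lies below it in both Trem2-/- groups, and *Jund* is smaller in the Trem2-/- groups. The shares depend on the exon lengths used.

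*Ier2* lies on the minus strand at chr8:84661331-84662852 and shares no exon base with another gene. Its CPM were 12.2, 15.3, 15.2 and 14.4 in WT non-foamy and 9.18, 9.78 and 12.2 in Trem2-/- non-foamy cells. The highest Trem2-/- library, at 12.18 CPM, stood just below the lowest WT library, at 12.21 CPM. Groups failed to overlap for 46.1% of all tested genes in this comparison. The log2 fold change was -0.46 (s.e. 0.13, edgeR adjusted p = 0.00677), and without Trem2-/- non-foamy replicate 1 it was -0.38 and missed the threshold (edgeR adjusted p = 0.0533). With cholesterol the CPM were 13.1, 11.96, 15.3 and 12.5 in WT and 9.56, 12.9, 10.8 and 8.99 in Trem2-/- cells. These groups overlapped, and the log2 fold change of -0.32 (s.e. 0.12) passed narrowly (edgeR adjusted p = 0.0452). This call was lost without WT foamy replicate 1 (edgeR adjusted p = 0.0642), 3 (0.146) or 4 (0.0567), or Trem2-/- foamy replicate 1 (0.133), 3 (0.0706) or 4 (0.140). Cholesterol gave log2 values of -0.11 (95% CI -0.36 to 0.14) in WT and 0.03 (95% CI -0.25 to 0.30) in Trem2-/- cells, neither past the threshold.

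*Egr1* (plus strand, chr18:34859823-34864984) was listed with 0 counts in all 15 libraries, 0 of 503704621 counts in all. A count of 0 allows up to 3 counts if counts are independent, which is 0.0720 to 0.127 CPM in a single library and covers counting error only. Counts of 1 to 10 were even in 82.7% to 83.9% of cases, as when both mates of a pair are counted. The limit in CPM may therefore be too low. It shares no exon base with another gene. Of 21793 protein-coding genes, 34.0% were also at 0 in all libraries. Whether a gene listed at 0 had no RNA or was missed in counting cannot be told apart from these files. *Egr2*, the Egr gene of myeloid differentiation, was measured at a mean of 1.18 CPM and *Egr3* at 1.11 CPM, and *Egr4* was at 0. *Egr2* was called higher in Trem2-/- cells without cholesterol (1.65 against 0.779 CPM, log2 fold change 1.05, s.e. 0.32, edgeR adjusted p = 0.0104), a call lost without Trem2-/- non-foamy replicate 2 (edgeR adjusted p = 0.0748). With cholesterol the *Egr2* levels were 1.21 and 1.19 CPM. *Egr3*, named after its values were seen, gave log2 values of -0.24 and -0.84 in the same comparisons and did not pass (edgeR adjusted p = 0.633 and 0.0662). The Egr corepressor *Nab1* was called higher in Trem2-/- cells without cholesterol (log2 0.14, edgeR adjusted p = 0.0493), which passed in 3 of 15 alternative fits and in none that left out 1 library, and *Nab2*, the other one, was called in no comparison.

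Calls among other immediate early genes went in both directions, as they did among all tested genes. Of 31 listed, 26 were tested, and *Egr4*, *Ccn1* and *Ccn2* were at 0. Without cholesterol, 9 were called higher and 4 lower in Trem2-/- cells, where 43.6% of all tested genes were called (21.0% higher and 22.6% lower). Among them, *Zfp36l1*, which destabilises AU-rich mRNAs, was higher (log2 0.57, edgeR adjusted p = 0.00086), while *Trib1*, a pseudokinase, was lower (-0.89). With cholesterol, 4 were higher and 3 lower, against 30.2% of all tested genes (14.3% higher and 15.9% lower). *Plk2*, a stress-responsive polo-like kinase, was lower without and with cholesterol (log2 -0.50 and -0.67). *Ptgs2*, the inducible cyclooxygenase, and *Gadd45b*, a growth-arrest gene, were higher in both (log2 0.42 and 0.76 for *Ptgs2*, 0.45 and 0.55 for *Gadd45b*). Under cholesterol *Dusp1*, the phosphatase that switches off MAP kinases, was lower (log2 -0.83, edgeR adjusted p = 0.00015), as was *Trib1* (-0.84). Leaving out a single library ended the *Trib1* call in both comparisons (WT non-foamy replicate 2, Trem2-/- non-foamy replicate 2 or 3, WT foamy replicate 2 or 4, or Trem2-/- foamy replicate 1 or 3, with edgeR adjusted p up to 0.073 without and 0.104 with cholesterol), and the *Ptgs2* call without cholesterol was lost without WT non-foamy replicate 1 or 2 or Trem2-/- non-foamy replicate 1 and under total-count scaling (edgeR adjusted p up to 0.101). The other calls named here passed in every alternative fit. Scaling by total counts gave 4 higher and 5 lower without and 3 higher and 6 lower with cholesterol.

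Cholesterol lowered 1 of the 26 in WT cells, *Ier3*, a stress-survival gene (log2 -0.29, edgeR adjusted p = 0.00934), a call lost without WT foamy replicate 2 or with only the WT libraries in the fit (edgeR adjusted p up to 0.0575). Of all tested genes, 2.80% were called for cholesterol in WT cells. In Trem2-/- cells edgeR called 0 of the 26, against 0.140% of all tested genes, and DESeq2 called 0. Of the 26, 4 had an unadjusted edgeR p under 0.05 there, as had 918 of all 14237 tested genes. For the difference between the responses, 3.64% of all tested genes were called. The responses differed for *Ier3* (log2 0.36, edgeR adjusted p = 0.0254) and for *Klf6*, a zinc-finger factor (-0.33, edgeR adjusted p = 0.0355), and both calls were lost in several fits that left out 1 library (edgeR adjusted p up to 0.0759 and 0.0959), namely WT non-foamy replicate 1, WT foamy replicate 2, each Trem2-/- non-foamy replicate and Trem2-/- foamy replicate 1 for both, and Trem2-/- foamy replicates 2 and 3 for *Klf6*.

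Of 9 upstream regulators of immediate early promoters, 1 was called higher and 3 lower in Trem2-/- cells both without and with cholesterol, where 43.6% and 30.2% of all tested genes were called. *Srf*, which binds the CArG box, was lower (log2 -0.79 and -0.48, edgeR adjusted p = 5.34e-05 and 0.00509) in every alternative fit. *Crem*, a cAMP-responsive bZIP factor, was lower without cholesterol (-0.42), and *Elk1*, the ETS partner of Srf, was lower in both (-0.39 and -0.38). The first *Elk1* call was lost without WT non-foamy replicate 2 (edgeR adjusted p = 0.0558) and the second without Trem2-/- foamy replicate 4 or without the 3 libraries that stood apart (edgeR adjusted p up to 0.0891). *Atf1*, a CREB relative, was higher (log2 0.54 and 0.26), the second not under total-count scaling (edgeR adjusted p = 0.0698).

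Of 20 MAP kinase pathway genes, 6 were higher and 2 lower in untreated Trem2-/- cells, and under cholesterol 3 were higher and 3 lower, against the same 43.6% and 30.2% of all tested genes. *Mapk3*, which encodes ERK1, was higher (log2 0.71 and 0.36, edgeR adjusted p = 9.84e-09 and 9.69e-05). *Map2k3*, a p38 activator, was lower in both (log2 -0.37 each), as was *Map2k1*, the ERK activator (-0.36 and -0.26), and *Rps6ka2*, a ribosomal S6 kinase, was lower with cholesterol (-1.18). The named MAP kinase calls passed in every alternative fit. Total-count scaling changed the balance of the list to 3 higher and 4 lower without and 2 higher and 5 lower with cholesterol. The responses to cholesterol differed for *Mapk3* (log2 -0.35, edgeR adjusted p = 0.0309), a call lost in 8 of 22 alternative fits, among them total-count scaling and those without WT non-foamy replicate 1, WT foamy replicate 2, any 1 Trem2-/- non-foamy replicate or Trem2-/- foamy replicate 3 (edgeR adjusted p up to 0.104).

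Of 20 other bZIP genes, 18 were tested, with 5 higher and 4 lower in untreated Trem2-/- cells and 3 higher and 2 lower under cholesterol (43.6% and 30.2% of all tested genes called). *Ddit3*, which encodes the stress factor CHOP, was higher (log2 0.998 and 0.424, edgeR adjusted p = 3.16e-06 and 0.0136), as was *Atf5* (0.91 and 0.64). The second *Ddit3* call was lost under total-count scaling (edgeR adjusted p = 0.0758). *Jdp2*, a Jun-binding repressor of AP-1, was lower (log2 -0.87 and -0.32), the second call being lost without WT foamy replicate 2 or 4 or Trem2-/- foamy replicate 2 or 4 (edgeR adjusted p up to 0.109). *Cebpd*, an acute-phase C/EBP factor, was lower without cholesterol (-1.33), and *Atf4*, the effector of the integrated stress response, was lower in both (-0.37 and -0.23). Total-count scaling gave 3 higher and 4 lower without and 2 higher and 3 lower with cholesterol.

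Of 12 textbook AP-1 target genes, 11 were tested. The list was written with earlier results of these data known, so its share of calls is not a test of AP-1 targets. Without cholesterol, 3 were higher and 3 lower in Trem2-/- cells, and with it, 2 were higher and 5 lower, beside 43.6% and 30.2% of all tested genes called in either direction. *Ccl2*, a monocyte chemokine, was lower (log2 -2.04 and -1.57, edgeR adjusted p = 2.38e-06 and 4.07e-05). *Ccnd1*, which encodes cyclin D1, was lower in both (-1.79 and -1.17), and so was *Mmp12*, macrophage elastase (-1.76 and -1.88). *Plaur*, the urokinase receptor, was higher (0.40 and 0.30), as was *Hmox1*, heme oxygenase (0.32 and 0.27), and *Vegfa*, an angiogenic factor, was higher without cholesterol (0.38). These calls passed in every alternative fit except that of *Plaur* with cholesterol under total-count scaling (edgeR adjusted p = 0.112). That scaling gave 3 higher and 6 lower of the 11 without and 1 higher and 6 lower with cholesterol. In Trem2-/- cells cholesterol lowered *Plau*, which encodes urokinase (log2 -0.34, edgeR adjusted p = 0.0390), a call lost in 7 of 15 alternative fits, among them those without Trem2-/- non-foamy replicate 2 or 3 or Trem2-/- foamy replicate 1, 3 or 4 (edgeR adjusted p up to 0.364). The responses differed for *Ccnd1* (0.62) and *Plau* (-0.36), which passed in 11 and 14 of 22 alternative fits. The *Ccnd1* difference was lost without WT non-foamy replicate 1, 2 or 4, WT foamy replicate 2 or 3, Trem2-/- non-foamy replicate 1 or 2 or Trem2-/- foamy replicate 1 or 2 (edgeR adjusted p up to 0.118), and the *Plau* difference without WT non-foamy replicate 1, WT foamy replicate 2, Trem2-/- non-foamy replicate 2 or 3 or Trem2-/- foamy replicate 1 or 3 (up to 0.103). Over the upstream regulators, MAP kinases, bZIP genes and AP-1 targets together, cholesterol in WT cells gave 0 calls of 58 by edgeR. Of all tested genes, 2.80% were called. Of the 58, 13 had an unadjusted edgeR p under 0.05, as had 2341 of all 14237 tested genes, and DESeq2 called 4.

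**Figure D5:**
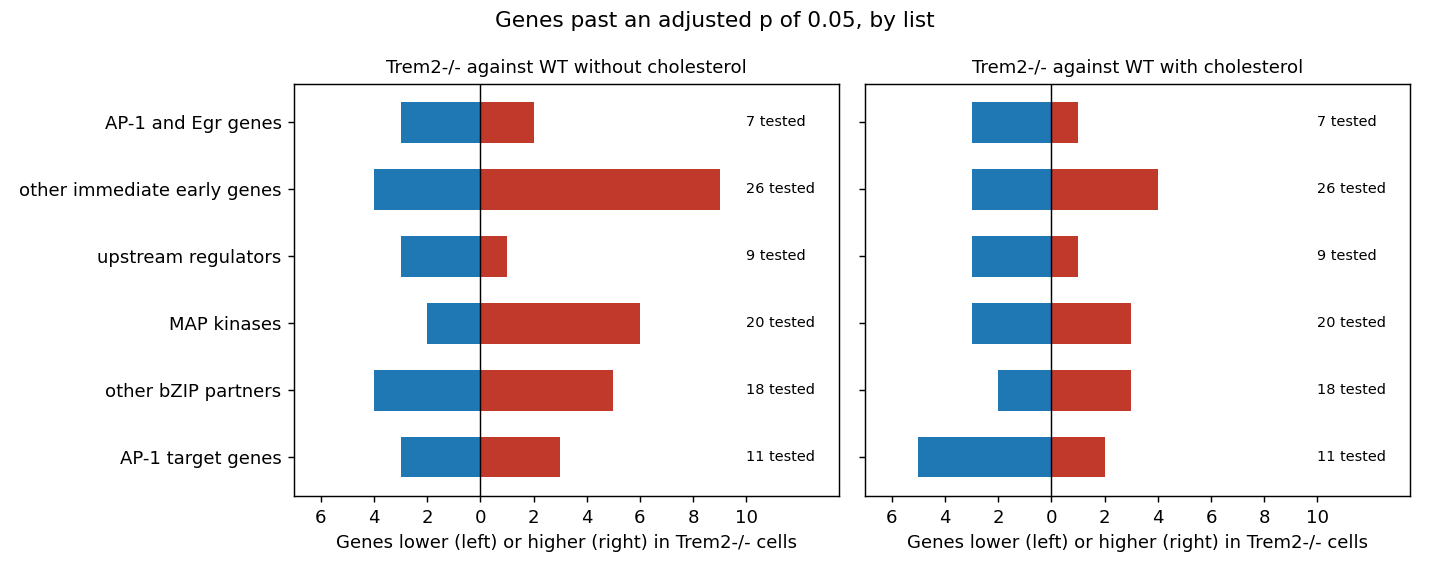
Number of genes called lower (left, blue) and higher (right, red) in Trem2-/- than in WT cells for the AP-1 and Egr genes and 5 related lists, without (left panel) and with cholesterol (right panel). Among AP-1 targets with cholesterol, 5 genes are lower and 2 higher of 11 tested, where 30.2% of all tested genes were called (15.9% lower and 14.3% higher). The lists were written with earlier results of these data known, so their counts are not a test of the lists.

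The genes whose pattern over the 15 libraries was most like each tested gene were found as those with the smallest root mean square difference in centred log2(CPM + 1), among 11701 genes whose mean reached 1 CPM. For *Atf3* these were *Ctsb* (0.0547), a lysosomal protease, *Rell1* (0.0608) and *Msrb1* (0.0704), where the SD of *Atf3* itself was 0.393. For *Fos* they were *Kcnk2* (0.202), *Rmi2* (0.208) and *Spred2* (0.214), an inhibitor of Ras-ERK signalling, against an SD of 0.548. For *Jund* they were *Wasf1*, *Hhex* and *Rhof* (0.118 to 0.121, SD 0.325), and for *Ier2* *Thap7*, *Thoc6* and *Orai1* (0.102 to 0.106, SD 0.248). Among the nearest genes, those of *Jun* (*Tbc1d10b*, *Ppp1r9b* and *Lrp10*), *Junb* (*Apba1*, *Xrcc1* and *C1qtnf6*) and *Fosl2* (*Gm9333* and *Rasal2*) differed by 0.0666 to 0.109. These likenesses were searched over all libraries, including the genotype difference, and carry no test.

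The members did not vary evenly among replicates. Trem2-/- foamy replicate 4 was the lowest of its group for 5 of the 7 tested genes (median deviation -0.20 on the log2 scale), the exceptions being *Fos* and *Atf3*. WT non-foamy replicate 1 and Trem2-/- non-foamy replicate 2 were lowest for 4 each, and Trem2-/- non-foamy replicate 3 was highest for 4. Leaving out the 3 libraries that stood apart on the second component left 1, 0, 5, 4 and 1 of the 7 genes called in the WT cholesterol, Trem2-/- cholesterol, untreated genotype, cholesterol-treated genotype and difference comparisons. Under cholesterol *Junb* was then among those called (log2 0.30, edgeR adjusted p = 0.00208) and *Ier2* was not (-0.26, edgeR adjusted p = 0.113).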

How the data were processed

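RNA from 15 BV2 libraries was isolated with Trizol and RNeasy and sequenced after TruSeq library preparation. The authors used Trimmomatic for trimming and HISAT2 for alignment to GRCm38 (Ensembl 102 annotation), and counted reads with featureCounts in CHURP. The deposited values are raw counts per gene, without normalization, and the settings for strand and for reads with several matches are not given in the sources used here. Libraries held 23538963 to 41683825 counts. Counts of 1 to 10 were even in 82.7% to 83.9% of cases and counts of 1000 to 5000 in 49.4% to 51.6%, so halved counts were added as an alternative.

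In R 4.3.3, filterByExpr of edgeR 4.0.16 with a minimum count of 10 kept 14237 of 54390 genes, TMM factors ran from 0.918 to 1.11, and a quasi-likelihood model (glmQLFit, glmQLFTest) took all 15 libraries with a mean for each group. Variation between libraries beyond counting error, as edgeR estimates it, came to a coefficient of 10.23% and may be technical. CPM use the scaled library sizes, except that the limits for a count of 0 use total counts, and RPKM use merged exon lengths of GENCODE M21. Promoters came from RefSeq. The 10 genes are named in every comparison. From each related list, the called genes with the 2 largest increases and the 2 largest decreases could be named where their mean reached 1 CPM. Members and lists were chosen with earlier results of these data known. Alternatives were DESeq2 1.42.0 (Wald test, size factors), total-count scaling, no filter, only the groups compared, a replicate block and leaving out each library. Halved counts and leaving out 3 libraries together were added after the data were seen. Results for some genes that the rules would name are not reported here. Only these counts were used, and the other experiments of the study were not analysed here.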

Additional observations from a re-analysis of the deposited data

Results flagged for a closer look

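Dixon's test was applied to 9 genes in the 3 groups of 4 libraries, 27 tests in all, of which chance flags about 1 in 20. It picked out 3 values, all in Trem2-/- foamy replicate 3. *Fos* was 2.22 CPM there against 0.945, 1.08 and 1.11 CPM in the other libraries of the group. *Fosl2* was 9.68 CPM against 7.43, 7.44 and 7.51 CPM, and *Atf3* was 243 CPM, the lowest, against 256, 256 and 258 CPM. Without this library the *Fos* and *Atf3* calls between the genotypes with cholesterol still passed.

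The response of *Atf3* to cholesterol differed between Trem2-/- and WT cells by -0.49 on the log2 scale (edgeR interaction contrast, adjusted p = 0.00322). In WT cells all 4 treated libraries lay above the 4 untreated ones, and in Trem2-/- cells all 4 treated libraries lay below the 3 untreated ones, the second without passing the test.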

How the results depend on the processing

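The calls of *Atf3*, *Fos* and *Jund* passed in every alternative fit, and of 588 fold changes under alternatives 524 kept their direction and their side of the threshold. Total-count scaling moved the median log2 value of all genes in Trem2-/- against WT cells to -0.13 without and -0.13 with cholesterol (0.017 and 0.00033 with TMM), and the share of calls that were higher from 48.1% and 47.4% to 29.4% and 23.3%, from 59.4% to 41.8% for cholesterol in WT cells and from 54.8% to 70.3% for the difference between the responses. It reversed 4 uncalled values: *Jund* -0.0022 (cholesterol, WT), *Jun* 0.0015 (cholesterol, Trem2-/-), *Fosl2* -0.067 (genotype, untreated) and *Jun* -0.062 (genotype, cholesterol). Over all genes, calls for cholesterol in WT cells (399) became 896 by DESeq2, 607 without a filter, 144 with the WT libraries alone and 1222 without 3 libraries. In Trem2-/- cells (20) they became 54, 61 and, without 3 libraries, 126, and for the difference (518) 968 by DESeq2 and 1514 without 3 libraries. Replicate numbers did not pair the samples (median r of deviations -0.046 over 21 pairs of the same number and 0.0041 over 63 others). A replicate block gave 294 calls for the difference, ended the *Junb* call without cholesterol (0.22, edgeR adjusted p = 0.104) and reversed uncalled cholesterol values in Trem2-/- cells (*Jun* 0.0095, *Junb* 0.0021, *Jund* 0.0075). It changed no other call of the 7 genes. Leaving out 3 libraries reversed uncalled values of *Fosl2* (cholesterol in WT -0.20, genotype -0.013 and 0.089, difference 0.10), of *Jun*, *Junb* and *Jund* for cholesterol in Trem2-/- cells (0.095, 0.068 and 0.065) and for the difference (0.084, 0.022 and 0.053). Leaving out 1 library at a time gave 146 to 526 calls over all genes for cholesterol in WT cells (lowest without WT foamy replicate 2, highest without WT foamy replicate 4), 10 to 18 in Trem2-/- cells (lowest without Trem2-/- non-foamy replicate 1) and 201 to 661 for the difference (lowest without Trem2-/- non-foamy replicate 1, highest without WT foamy replicate 4), and 3 to 5 of the 7 genes without cholesterol between the genotypes (3 without Trem2-/- non-foamy replicate 1). It gave these ranges, which cross 0, for uncalled values: cholesterol in WT, *Fos* -0.0082 to 0.23, *Fosl2* -0.10 to 0.16 and *Jund* -0.041 to 0.068. Cholesterol in Trem2-/- gave *Jun* -0.099 to 0.096, *Junb* -0.095 to 0.068, *Jund* -0.20 to 0.097 and *Ier2* -0.085 to 0.16. Genotype gave *Fosl2* -0.013 to 0.15 untreated and -0.20 to 0.057 with cholesterol, and the difference gave *Jun* -0.17 to 0.020 and *Jund* -0.21 to 0.088. The cause of these changes was not tested. Using only the groups compared was not run for the difference. Low counts kept *Fosb*, *Fosl1* and *Egr1* out of the test.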
